A study of Mus musculus with 39 samples.

Results

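The chemokine ligands and receptors of the injured sciatic nerve were examined as 1 family of genes. Members were chosen by their read counts. They were the protein-coding genes whose GENCODE mouse symbol is Ccl, Cxcl, Ccr or Cxcr with a number and that had at least 10 read counts in at least 4 of the 39 libraries. Of 57 genes with such a symbol, 36 met the count minimum, out of 55573 genes in the files. They comprised 16 CC ligands, 9 CXC ligands, 7 CC receptors and 4 CXC receptors. The counts themselves chose the members, so that detection in these nerves is a property of the choice. Just inside the minimum lay Cxcr1, with 10 counts or more in 4 libraries, and just outside it lay Ccr4 with 2 such libraries and Ccl19, Ccr6 and Cxcr2 with 1 each. In healthy nerves alone, 23 of the 36 members would have met the minimum and 13 would not (Ccl4, Ccl8, Ccl17, Ccr3, Ccr7, Ccr9, Cxcl2, Cxcl5, Cxcl9, Cxcl13, Cxcr1, Cxcr3 and Cxcr6).

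Chemokines are small secreted proteins that steer migrating cells along gradients. CC and CXC ligands differ in whether a residue separates the first cysteines of the protein, and each binds receptors of the same subfamily that signal through inhibitory G proteins. In a crushed peripheral nerve, Schwann cells, resident macrophages and fibroblasts release chemokines that recruit monocytes, which enter the distal stump and clear myelin debris, and T cells, neutrophils and dendritic cells carry their own sets of receptors.

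Bulk RNA sequencing was performed on endoneurium of the distal sciatic nerve of C57BL/6 mice between 2 and 4 months of age and of both sexes. All groups carried the floxed leptin receptor alleles Lepr fl/fl. Control mice (Lepr-ctrl) carried them alone, and mutants (Lepr-cKO) were Lepr fl/fl::Dhh-Cre. In the mutants, Cre recombinase is driven by Dhh regulatory sequences and recombines in Schwann cells. Whether the other endoneurial cells keep the receptor was not tested here. The sciatic nerve was crushed on one side, and the contralateral nerve served as the healthy nerve, at 2 or 4 weeks post-crush (wpc), in different mice at each time. Healthy nerves numbered 5 for Lepr-ctrl and 6 for Lepr-cKO at 2 wpc and 5 in each genotype at 4 wpc, and injured nerves numbered 5 in each genotype at 2 wpc and 4 in each at 4 wpc, from 22 mice in all. Both nerves were sequenced for 17 mice.

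Total counts ranged from 10905806 to 45016322 per library and were lowest in the injured nerves at 4 wpc. Libraries are named as in their labels, where the closing i or ni marks the injured and c or nc the healthy nerve around the number of the animal, and where those of 2 wpc share a prefix in both genotypes. Lepr counts do not check the genotype, because reads outside the deleted exon can still be counted, and Lepr was called in no genotype comparison. It rose with injury, with log2 fold changes of 2.50 ± 0.31 (SE, adjusted p = 1.37e-08) in Lepr-ctrl and 2.77 ± 0.29 (SE, adjusted p = 4.38e-10) in Lepr-cKO at 2 wpc. Schwann cell markers summed to between 40295 and 58255 CPM (read counts scaled to a common library size) in healthy and between 7156 and 46387 CPM in injured nerves, where 2, 3, 3 and 1 of 5 were called lower in Lepr-ctrl at 2 and 4 wpc and in Lepr-cKO at 2 and 4 wpc. Mitochondrial genes took 1.92 to 4.25% of the counts in healthy and 2.95 to 33.0% in injured nerves, with the highest shares in SLRKO2wpc144i (33.0%) and SLRKO2wpc135i (29.7%), and with these genes left out of the normalization, 25, 24, 27 and 26 members were called with injury, the numbers given below. Among injured nerves at 2 wpc, the Lepr-ctrl library SLRKO2wpc144i had the highest macrophage markers (3126 CPM) and neutrophil markers (79.6 CPM). The Lepr-cKO library SLRKO2wpc128i and the Lepr-ctrl library SLRKO2wpc130i had the highest dendritic cell markers (153.8 and 125.6 CPM), and the Lepr-cKO library SLRKO2wpc126i held 36440 CPM of skeletal muscle markers. With these 4 libraries left out together, a choice made after the data were seen, 24, 24, 28 and 26 members were called with injury in Lepr-ctrl at 2 and 4 wpc and Lepr-cKO at 2 and 4 wpc, where 25, 24, 27 and 26 were called with all libraries.

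Levels of different genes were compared per kilobase of exon. In healthy nerves, the 3 highest genes of each of the 4 groups held 74.1 to 78.9% of the summed level of all members. Ccl11 and Cxcl12 led in every group, and the third gene was Ccl7 in Lepr-ctrl at 2 wpc and Ccl6 in the others. Ccl11 (eotaxin, which attracts eosinophils) stood at 81.8 CPM per kilobase in Lepr-ctrl nerves at 2 wpc, and Cxcl12, which retains Cxcr4-bearing cells in tissues, at 34.7 CPM per kilobase. The next gene was Ccl7 at 5.47 CPM per kilobase. In injured Lepr-ctrl nerves at 2 wpc, the order was Ccl6 at 85.5, Ccl11 at 75.6 and Cxcl14 at 43.0 CPM per kilobase, and these 3 held 52.1% of the sum. At 4 wpc, Ccl11 led in injured nerves of Lepr-ctrl (98.2 CPM per kilobase) and of Lepr-cKO (76.4 CPM per kilobase), followed by Ccl6 at 34.9 and 22.6 CPM per kilobase. The Ccl6 level at 2 wpc rests on SLRKO2wpc144i, as its values below show. All members together took 0.0190 to 0.111% of the counts of a library.

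**Figure D1:**
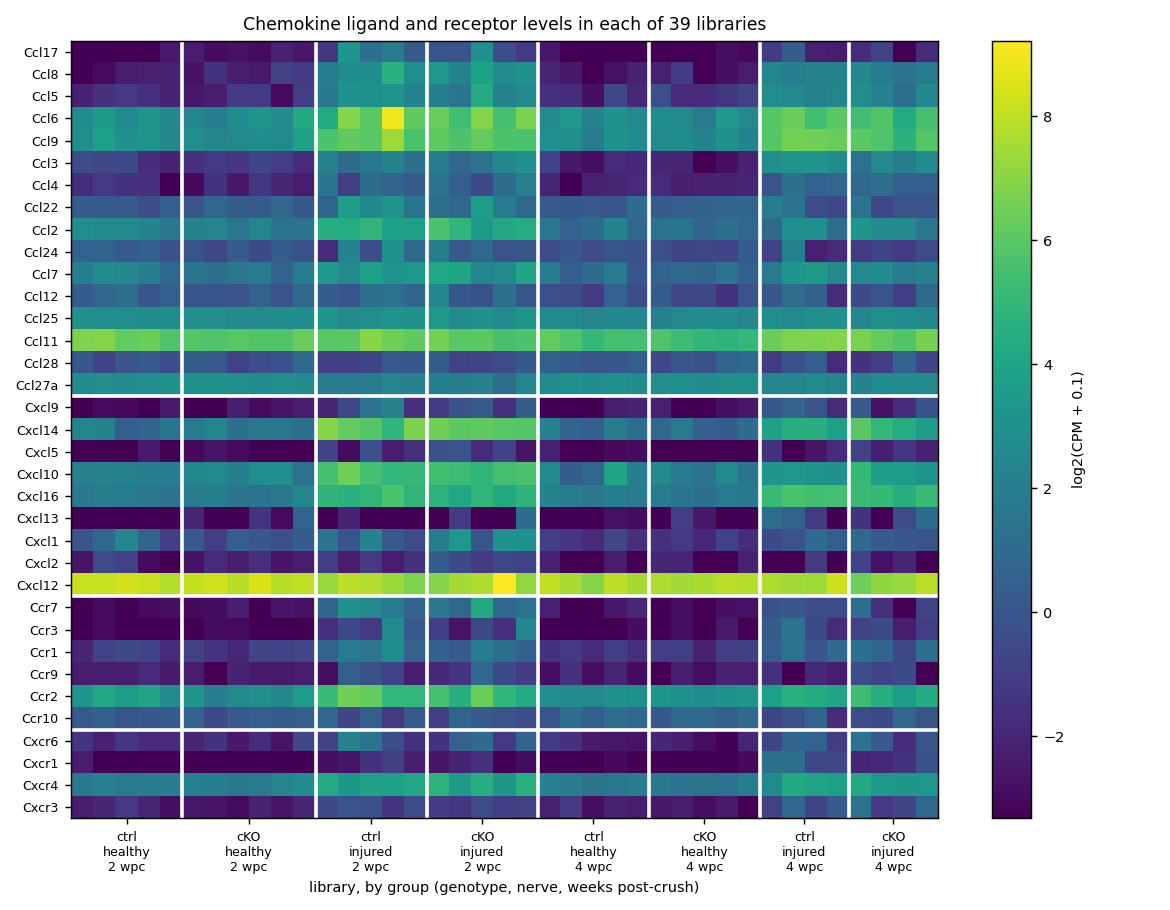
Level of 35 of the 36 members (rows, by class and then by fold change) in each of the 39 libraries (columns, by group) as log2(CPM + 0.1). Ccl11 and Cxcl12 are bright in all 8 groups, and 13 rows are near the floor in healthy nerves, among them Ccl8, Ccl17 and Ccr7.

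The comparison of injured with healthy nerves shows how the family changed in the regenerating stump. Genes were called when they changed by more than 1 on the log2 scale in either direction with an adjusted p under 0.05 (edgeR quasi-likelihood test over 18442 genes). In Lepr-ctrl nerves, 25 members were called higher and 0 lower at 2 wpc, where 19.8% of all genes tested were called higher and 14.3% lower. At 4 wpc, 23 were called higher, against 20.1% of all genes, and 1 lower, Ccr10, against 15.9% of all genes. In Lepr-cKO nerves, 27 were called higher and 0 lower at 2 wpc (20.9% of all genes higher and 13.4% lower). At 4 wpc, 26 were called higher and 0 lower there (16.8% of all genes higher and 10.8% lower). The median log2 fold change of the members was 2.74 and 2.18 in Lepr-ctrl nerves at 2 and 4 wpc and 2.59 and 2.47 in Lepr-cKO nerves, beside 0.078, 0.024, 0.097 and 0.057 over all genes. With members at or under 3 counts in every library of a group set to their bound, these medians were 2.10, 1.99, 2.39 and 2.05.

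For members that reached the count minimum only through injured nerves, the choice favours higher values there, so these counts describe the family and support nothing. Of the 23 members that met it in healthy nerves alone, 14 and 13 were called higher in Lepr-ctrl at 2 and 4 wpc and 15 and 15 in Lepr-cKO. Of the other 13, 11 and 10 were called higher in Lepr-ctrl and 12 and 11 in Lepr-cKO. Across the 4 comparisons, 20 members were called higher in every one, 5 in 3, 2 in 2, 2 in 1 and 7 in none. This tally includes the 13 members that fell short of the minimum in healthy nerves. In single comparisons 16.8 to 20.9% of all genes were called higher, and their share over all 4 was not computed. In bulk tissue, more cells of a type and more RNA per cell cannot be told apart.

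**Figure D2:**
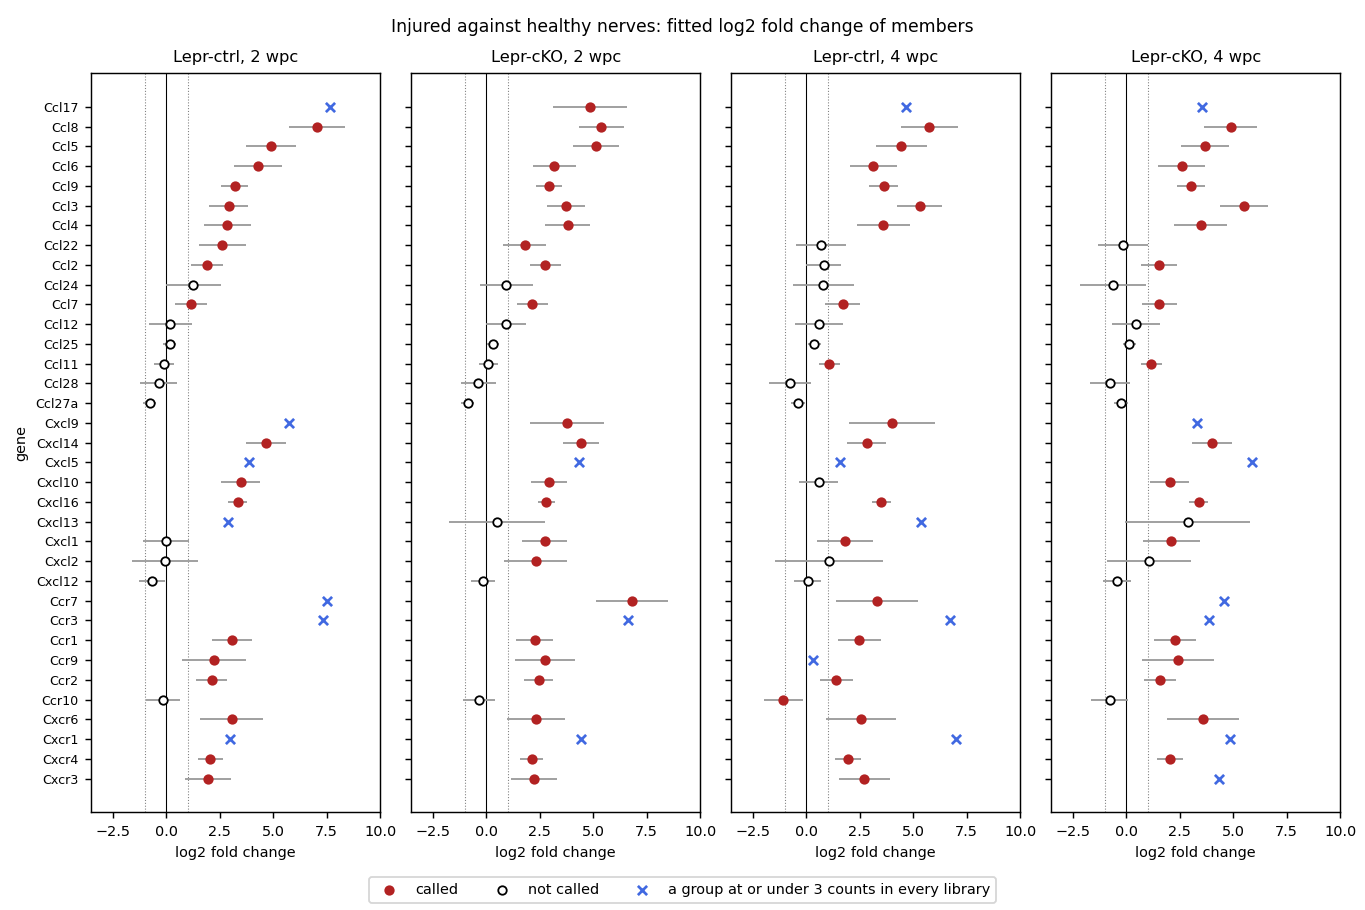
Fitted log2 fold change of injured against healthy nerves for 35 of the 36 members (rows) in each genotype and at each time (columns), with 95% intervals as lines. Filled points were called, open points were not, and crosses mark members at or under 3 counts in every library of a group, whose fitted value is no bound. The 5 inflammatory CC ligands (Ccl3, Ccl4, Ccl5, Ccl6 and Ccl9) lie to the right of the line at 1 in all 4 columns, and Ccl25, Ccl27a and Cxcl12 lie within 1 of 0.

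Ccl2, Ccl7, Ccl8 and Ccl12 were listed here as ligands of CCR2, the receptor of inflammatory monocytes. Whether each binds CCR2 in the mouse was not examined. Of these 4, 3 were called higher in Lepr-ctrl at 2 wpc and in Lepr-cKO at both times, and 2 in Lepr-ctrl at 4 wpc. Over all genes, 16.8 to 20.9% were called higher in these comparisons. Ccl8 would not have met the count minimum in healthy nerves alone, so the choice of members favours its being higher with injury. Ccl2, the main monocyte attractant, stood at 6.95, 6.23, 6.07, 4.90 and 3.16 CPM in healthy and 22.6, 21.9, 29.2, 14.2 and 14.5 CPM in injured Lepr-ctrl nerves at 2 wpc. All injured nerves lay above all healthy ones, with a log2 fold change of 1.90 ± 0.38 (SE, adjusted p = 4.86e-05). In Lepr-cKO injured nerves at 2 wpc, Ccl2 was 51.0, 29.2, 11.2, 18.5 and 21.9 CPM, with a log2 fold change of 2.76 ± 0.36 (SE, adjusted p = 5.03e-08). At 4 wpc, the injured Lepr-ctrl nerves held 1.92, 7.01, 7.63 and 2.16 CPM, and the groups overlapped, with a log2 fold change of 0.81 ± 0.41 (SE, adjusted p = 0.0836). Without the healthy library WT-173Snc, the 4 wpc value became 1.15 with an adjusted p of 0.019, past the threshold, as it also was without the injured library WT-170Sni (1.04, adjusted p = 0.0324) or WT-178Sni (1.02, adjusted p = 0.0383). Ccl8 was nearly silent in healthy nerves, at 0, 0.0310, 0.0909, 0.118 and 0.134 CPM in Lepr-ctrl at 2 wpc. In the injured nerves it was 3.93, 6.73, 6.73, 25.7 and 7.47 CPM, the highest value belonging to SLRKO2wpc144i. The log2 fold change was 7.03 ± 0.64 (SE, adjusted p = 1.82e-11). It became 6.33 without this library and 6.04 with the animal as a block, called in both. The block also takes SLRKO2wpc144i out of the estimate, because its animal has no healthy library. At 4 wpc Ccl8 lay within a narrow range in injured Lepr-ctrl nerves (5.05, 4.21, 4.79 and 4.79 CPM). Ccl7 was called higher in all 4 comparisons, with log2 fold changes from 1.18 in Lepr-ctrl at 2 wpc to 2.15 in Lepr-cKO at 2 wpc. Ccl12, the neighbour of Ccl11 on chromosome 11, was called in none (0.20 to 0.93).

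The inflammatory CC ligands of macrophages and T cells (Ccl3, Ccl4, Ccl5, Ccl6 and Ccl9) were called higher 5 of 5 in every comparison, where 16.8 to 20.9% of all genes were. Their median log2 fold changes were 3.20, 3.63, 3.73 and 3.47 in Lepr-ctrl at 2 and 4 wpc and Lepr-cKO at 2 and 4 wpc. Ccl4 would not have met the count minimum in healthy nerves alone, so the choice of members favours its being higher with injury. Ccl6, a macrophage and neutrophil product of rodents, was 6.61, 11.2, 6.59, 8.74 and 5.52 CPM in healthy and 20.5, 124, 65.1, 487 and 70.9 CPM in injured Lepr-ctrl nerves at 2 wpc, in the order of SLRKO2wpc123i, SLRKO2wpc130i, SLRKO2wpc131i, SLRKO2wpc144i and SLRKO2wpc147i. SLRKO2wpc144i thus held several times the level of any other library, and the mean of 154 ± 190.1 CPM (SD, n = 5) is set by it. This library also had the highest macrophage markers at 2 wpc, whose part in the value was not tested. Even the lowest injured nerve lay above all healthy ones, with a log2 fold change of 4.31 ± 0.55 (SE, adjusted p = 2.79e-08). That fold depended on the setting and was 3.18 without SLRKO2wpc144i, 2.96 with the animal as a block and 2.76 without the 4 libraries named above, and Ccl6 was called in each. Each of these settings takes SLRKO2wpc144i out of the estimate, the block because its animal has no healthy library. They are therefore not separate checks. Its relative Ccl9 followed in the same library, with 50.2, 70.6, 63.8, 166 and 49.1 CPM in injured against 7.22, 13.6, 8.14, 8.91 and 5.52 CPM in healthy nerves and a log2 fold change of 3.20 ± 0.32 (SE, adjusted p = 1.15e-10). In Lepr-cKO injured nerves at 2 wpc, Ccl6 ranged from 41.6 to 117 CPM and Ccl9 from 49.6 to 73.4 CPM. Ccl5 (RANTES, made by activated T cells) was 0.121, 0.248, 0.318, 0.236 and 0.134 CPM in healthy and 3.16, 8.51, 7.71, 8.92 and 4.76 CPM in injured Lepr-ctrl nerves at 2 wpc, a log2 fold change of 4.90 ± 0.58 (SE, adjusted p = 4.92e-09). In the Lepr-cKO injured group at 2 wpc, Ccl5 was 4.09, 2.63, 20.8, 4.55 and 6.33 CPM, with SLRKO2wpc128i highest. Ccl4 (MIP-1 beta) had log2 fold changes of 2.86 and 3.60 in Lepr-ctrl and 3.81 and 3.47 in Lepr-cKO nerves at 2 and 4 wpc. The values of Ccl3 (MIP-1 alpha) are given with the comparison of times below.

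Of the ligands of CCR3, the eosinophil receptor, 2 of 3 were tested. Ccl11 was called higher at 4 wpc in both genotypes and in neither at 2 wpc, and Ccl24 (eotaxin-2) was called in none. Ccl24 was 0.191, 4.61, 0.719, 7.69 and 1.72 CPM in injured Lepr-ctrl nerves at 2 wpc, where SLRKO2wpc130i, SLRKO2wpc144i and SLRKO2wpc147i stood above every healthy library and SLRKO2wpc123i below them, with a log2 fold change of 1.27 ± 0.63 (SE, adjusted p = 0.0741).

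The ligands of CCR4 belong to dendritic cells and alternatively activated macrophages and attract T cells. Ccl17 was at most 0.0890 CPM in healthy Lepr-ctrl nerves at 2 wpc, and 0.305, 9.60, 2.32, 3.84 and 1.03 CPM in the injured ones in the order of SLRKO2wpc123i, SLRKO2wpc130i, SLRKO2wpc131i, SLRKO2wpc144i and SLRKO2wpc147i. Healthy libraries held 3 counts or fewer, so no fold is given, and the adjusted p was 5.69e-07. In Lepr-cKO injured nerves at 2 wpc, Ccl17 was 0.922, 0.848, 8.01, 0.718 and 0.321 CPM, with SLRKO2wpc128i far above the other 4. At 4 wpc, the injured nerves of Lepr-ctrl held 0.348, 1.21, 0.111 and 0.0939 CPM (adjusted p = 0.00354) and those of Lepr-cKO 0.184, 0.492, 0 and 0.196 CPM (adjusted p = 0.0386). Without WT-171Sni, Ccl17 was no longer called in Lepr-ctrl nerves at 4 wpc, and its call in Lepr-cKO nerves at 4 wpc was lost in 8 of 47 alternatives. Ccl22 was called higher at 2 wpc, with log2 fold changes of 2.63 ± 0.54 (SE, adjusted p = 7.51e-05) in Lepr-ctrl and 1.80 ± 0.49 (SE, adjusted p = 0.00186) in Lepr-cKO, and was not called at 4 wpc (0.69 and -0.15). The same 2 libraries, SLRKO2wpc130i and SLRKO2wpc128i, were highest for Ccl22 (13.1 and 12.5 CPM) and for Ccl17 in their groups. They were also the highest for dendritic cell markers, as given above, whose part in these values was not tested.

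The 3 tested ligands of CCR7, CCR9 and CCR10 were called in no comparison, of 8 listed. Ccl25, a thymus and gut chemokine, kept to 5.80 to 9.45 CPM in injured Lepr-ctrl nerves at 2 wpc against 6.73 to 7.61 CPM in healthy ones, with log2 fold changes of 0.15 to 0.38 over the 4 comparisons. Its exons share 204 of 7445 bases with Elavl1 on the opposite strand, and whether the counting used strand is not given in the sources used here. Ccl27a, a skin chemokine, passed the adjusted p but not the fold threshold at 2 wpc, with log2 fold changes of -0.77 ± 0.15 (SE, adjusted p = 3.48e-05) in Lepr-ctrl and -0.87 ± 0.14 (SE, adjusted p = 3.24e-06) in Lepr-cKO. Every injured nerve lay below every healthy one in both genotypes at 2 wpc. Ccl27a has near-identical copies in the genome, so its counts are uncertain. Ccl28, a mucosal chemokine, had log2 fold changes between -0.77 and -0.35 and was not called.

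Of the ligands of CXCR2, the neutrophil receptor, 1 of 3 tested members was called higher in Lepr-ctrl nerves at 2 and at 4 wpc, and 3 and 2 in Lepr-cKO nerves. The share of all genes called higher was 16.8 to 20.9%. Cxcl2 and Cxcl5 would not have met the count minimum in healthy nerves alone, so the choice of members favours their being higher with injury. Cxcl1 (KC) was 0.940, 1.77, 5.16, 1.59 and 0.401 CPM in healthy and 2.67, 0.870, 4.64, 1.04 and 0.660 CPM in injured Lepr-ctrl nerves at 2 wpc, overlapping groups with a log2 fold change of -0.01 ± 0.52 (SE, adjusted p = 0.986). Without the healthy library SLRKO2wpc130c, which held 5.16 CPM, it was 0.75 and not called. In Lepr-cKO nerves it was 0.417 to 1.23 CPM with a median of 1.01 in healthy and 3.89, 10.1, 0.881, 7.93 and 8.41 CPM in injured nerves, where SLRKO2wpc128i alone stayed within the healthy range, with a log2 fold change of 2.74 ± 0.52 (SE, adjusted p = 2.34e-05). At 4 wpc, Cxcl1 was called in both genotypes, with log2 fold changes of 1.81 ± 0.65 (SE, adjusted p = 0.0156) and 2.11 ± 0.65 (SE, adjusted p = 0.00633). Without the injured library WT-173Sni, the Lepr-ctrl call was lost (1.38, adjusted p = 0.102). Cxcl2 (MIP-2), its close relative, was called in Lepr-cKO at 2 wpc alone, with a log2 fold change of 2.32 ± 0.73 (SE, adjusted p = 0.00568), where the Lepr-ctrl value was -0.06. Cxcl5 stayed at or under 0.784 CPM in every injured Lepr-ctrl nerve at 2 wpc, and every healthy library held 3 counts or fewer, so no fold is given. Its adjusted p was 0.00094 in Lepr-ctrl and 5.57e-05 in Lepr-cKO nerves at 2 wpc, both called. The genotype difference in these ligands is tested below.

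The ligands of CXCR3, a receptor of activated T and NK cells, are induced by interferons. Of 3 tested, 2 and 1 were called higher in Lepr-ctrl at 2 and 4 wpc and 2 and 2 in Lepr-cKO nerves, where 16.8 to 20.9% of all genes were. Cxcl9 would not have met the count minimum in healthy nerves alone, so the choice of members favours its being higher with injury. Cxcl11, which the annotation gives as a polymorphic pseudogene and which is therefore no member, was called in none, with log2 fold changes of -0.03 in Lepr-ctrl and -0.06 in Lepr-cKO at 2 wpc. Cxcl9 was at most 0.0890 CPM in healthy Lepr-ctrl nerves at 2 wpc and 0.152, 0.548, 2.48, 4.37 and 0.220 CPM in injured ones. Every injured nerve lay above every healthy one, and the adjusted p was 8.79e-06, with no fold given since the healthy libraries held 3 counts or fewer. At 4 wpc, the log2 fold change of Cxcl9 was 4.01 ± 0.99 (SE, adjusted p = 0.000658) in Lepr-ctrl nerves. Cxcl10 rose in Lepr-ctrl at 2 wpc and in Lepr-cKO nerves at both times, and its values are given with the comparison of times.

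The other CXC ligands behaved in different ways. Cxcl16, a membrane-bound ligand of CXCR6 that also takes up oxidised lipids, had the smallest adjusted p of the family in every injury comparison. It was 3.09, 3.87, 3.43, 3.04 and 2.67 CPM in healthy and 28.8, 25.2, 28.9, 51.0 and 29.1 CPM in injured Lepr-ctrl nerves at 2 wpc, a log2 fold change of 3.33 ± 0.21 (SE, adjusted p = 3.1e-15). At 4 wpc it was 35.3, 51.2, 43.2 and 44.5 CPM in injured Lepr-ctrl and 37.2, 33.2, 22.7 and 36.5 CPM in injured Lepr-cKO nerves. All injured nerves lay above all healthy ones in each comparison. Its exons share 552 of 3021 bases with Zmynd15 on the opposite strand. Cxcl12 was 286, 283, 332, 300.2 and 218 CPM in healthy and 155, 249.8, 218, 163 and 112 CPM in injured Lepr-ctrl nerves at 2 wpc, with a log2 fold change of -0.66 ± 0.30 (SE, adjusted p = 0.0503). In the Lepr-cKO injured group it was 118, 183, 212, 594 and 145 CPM, in the order of SLRKO2wpc125i, SLRKO2wpc126i, SLRKO2wpc128i, SLRKO2wpc135i and SLRKO2wpc138i. SLRKO2wpc135i was the highest of all libraries, and Cxcl12 was called in no comparison. Cxcl13, a B cell attractant, was listed at 0 counts in all healthy Lepr-ctrl nerves at 2 wpc and was 0 to 0.0482 CPM in healthy and 2.18, 1.47, 0.334 and 0 CPM in injured Lepr-ctrl nerves at 4 wpc, where it was called (adjusted p = 0.0077). In Lepr-cKO nerves at 2 wpc, the same animal had the highest Cxcl13 in its injured nerve (SLRKO2wpc138i, 2.02 CPM) and in its healthy nerve (SLRKO2wpc138c, 1.52 CPM), while 3 of the 5 injured nerves held 0 counts.

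Of the 7 CC receptors, 6 were called higher at 2 wpc in both genotypes and at 4 wpc in Lepr-cKO nerves, and 5 at 4 wpc in Lepr-ctrl nerves. Over all genes, 16.8 to 20.9% were called higher in these comparisons. Ccr3, Ccr7 and Ccr9 would not have met the count minimum in healthy nerves alone, so the choice of members favours their being higher with injury. Ccr2, the monocyte receptor for Ccl2, was 9.31, 17.4, 11.8, 15.9 and 6.54 CPM in healthy and 35.7, 93.0, 76.3, 31.8 and 31.4 CPM in injured Lepr-ctrl nerves at 2 wpc, with a log2 fold change of 2.14 ± 0.36 (SE, adjusted p = 3.85e-06). At 4 wpc it was 13.2, 25.0, 20.8 and 15.9 CPM, still above every healthy nerve of its group, with 1.41 ± 0.38 (SE, adjusted p = 0.00153). Ccr1, the receptor of Ccl3, Ccl5, Ccl6 and Ccl9, ranged from 1.43 to 6.74 CPM in injured and from 0.152 to 0.591 CPM in healthy Lepr-ctrl nerves at 2 wpc, with a log2 fold change of 3.07 ± 0.46 (SE, adjusted p = 4.63e-07), or 2.44 with the animal as a block. The block takes SLRKO2wpc144i, the highest of these libraries at 6.74 CPM, out of the estimate.

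Ccr3, the eotaxin receptor, was listed at no more than 3 counts in every healthy library. In injured nerves at 2 wpc it was 0.229, 0.580, 0.327, 6.46 and 1.10 CPM in Lepr-ctrl (adjusted p = 1.22e-05) and 0.403, 0.0565, 0.551, 0.239 and 5.59 CPM in Lepr-cKO nerves (adjusted p = 7.47e-06). SLRKO2wpc144i and SLRKO2wpc138i held most of it, and they also had the highest neutrophil marker sums at 2 wpc (79.6 and 73.7 CPM), whose part in the result was not tested. Ccr7, which leads mature dendritic cells and naive T cells to lymph nodes, was at most 0.0445 CPM in healthy and 1.60, 8.34, 5.81, 3.32 and 1.61 CPM in injured Lepr-ctrl nerves at 2 wpc (adjusted p = 6.08e-08). In injured Lepr-cKO nerves it was 3.08, 1.72, 19.6, 1.71 and 2.50 CPM, again with SLRKO2wpc128i far above the others, and the log2 fold change was 6.81 ± 0.82 (SE, adjusted p = 8.42e-09). Without that library it was 5.49 and still called. By 4 wpc, Ccr7 was 0.784, 0.956, 0.669 and 0.657 CPM in injured Lepr-ctrl nerves. Ccr9, the gut-homing receptor, was called higher in all but Lepr-ctrl nerves at 4 wpc, with 2.23 in Lepr-ctrl and 2.74 in Lepr-cKO at 2 wpc, and its exons share 1932 of 10260 bases with an opposite-strand transcript. Ccr10, a receptor of skin-homing T cells, was the only member called lower, in Lepr-ctrl nerves at 4 wpc, where it was 0.852, 2.21, 1.25, 2.19 and 1.65 CPM in healthy and 0.522, 0.765, 1.50 and 0.188 CPM in injured nerves with a log2 fold change of -1.07 ± 0.44 (SE, adjusted p = 0.0356). These groups overlapped, and the call was lost in 7 of 48 alternatives, among them the fit without a filter on low counts (-1.09, adjusted p = 0.0599). Without the injured library WT-173Sni it was -1.68 and called.

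All 4 CXC receptors were called higher in all 4 comparisons, where 16.8 to 20.9% of all genes were. Of them, Cxcr1, Cxcr3 and Cxcr6 would not have met the count minimum in healthy nerves alone, so this tally follows in part from the choice of members. Cxcr4, the receptor of Cxcl12 on many leukocytes, was 3.22, 4.37, 3.36, 3.81 and 3.92 CPM in healthy and 20.4, 9.89, 14.9, 14.6 and 18.5 CPM in injured Lepr-ctrl nerves at 2 wpc, with a log2 fold change of 2.07 ± 0.28 (SE, adjusted p = 9.71e-08). The other 3 comparisons gave 1.95, 2.12 and 2.06, so that Cxcr4 rose while its ligand was called in none. Cxcr3 was 0.610, 0.838, 0.751, 0.285 and 0.660 CPM in injured Lepr-ctrl nerves at 2 wpc against 0.0445 to 0.318 CPM in healthy ones, where SLRKO2wpc144i overlapped the healthy range, with a log2 fold change of 1.96 ± 0.53 (SE, adjusted p = 0.00171). Cxcr6, the receptor of Cxcl16 on memory T and NK cells, was 0.457, 4.67, 2.84, 0.712 and 0.256 CPM in injured and 0.124 to 0.295 CPM in healthy Lepr-ctrl nerves at 2 wpc, with a log2 fold change of 3.06 ± 0.72 (SE, adjusted p = 0.000408), or 2.32 without SLRKO2wpc130i. Cxcr1, a neutrophil receptor, was 0.0381, 0.0644, 0.261, 0.427 and 0.110 CPM at 2 wpc and 2.35, 2.23, 0.557 and 0.563 CPM at 4 wpc in injured Lepr-ctrl nerves. It held 3 counts or fewer in every healthy library of the 4 comparisons, so no fold is given, and the adjusted p was 0.00684 and 3.46e-07.

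Many members lie side by side in the genome. In GRCm38, 6 clusters with gaps under 1 Mb held 23 of the 36 members. The monocyte chemokine cluster on chromosome 11 (82035571 to 82116799, with Ccl2, Ccl7, Ccl11, Ccl12 and Ccl8) had 3 members called higher in each comparison except Lepr-cKO at 4 wpc, where 4 were. The Ccl5, Ccl9, Ccl6, Ccl3 and Ccl4 cluster on the same chromosome (83525778 to 83664683) had all 5 called higher in every comparison. The cluster of Cxcl5, Cxcl1 and Cxcl2 on chromosome 5 (90759360 to 90905938) had 1 called in Lepr-ctrl at each time, and 3 and 2 in Lepr-cKO nerves. Over all genes, 16.8 to 20.9% were called higher in these comparisons. Ccl4, Ccl8, Cxcl2 and Cxcl5 would not have met the count minimum in healthy nerves alone, so these tallies follow in part from the choice of members. The clusters were not tested.

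Beyond the members, 8 of 11 listed genes of the wider chemokine system were tested. With injury, 2, 3, 3 and 2 were called higher and 1 lower in each of Lepr-ctrl at 2 and 4 wpc and Lepr-cKO at 2 and 4 wpc. Cx3cr1, the fractalkine receptor of resident macrophages and monocytes, rose in all 4, with log2 fold changes of 1.82 ± 0.36 (SE, adjusted p = 5.17e-05) and 2.73 ± 0.38 (SE, adjusted p = 1.78e-07) in Lepr-ctrl nerves, while its ligand Cx3cl1 was not called (-0.07 and 0.13). Xcr1, a receptor of cross-presenting dendritic cells, was called higher in all 4, with 1.77 and 2.18 in Lepr-ctrl. Pf4 (CXCL4, a product of platelets and some macrophages) fell in Lepr-ctrl at 2 wpc by 1.92 on the log2 scale (adjusted p = 5.66e-06). Ackr1, a vascular receptor that binds chemokines without signalling, fell at 4 wpc, with log2 fold changes of -1.27 ± 0.21 (SE, adjusted p = 3.69e-06) in Lepr-ctrl and -1.17 ± 0.21 (SE, adjusted p = 1.73e-05) in Lepr-cKO. Of 20 genes that carry signals from chemokine receptors, 9, 8, 8 and 8 were called higher and 1 lower in each. Rac2, the leukocyte Rac GTPase, and Dock2, its exchange factor, had log2 fold changes of 4.29 and 3.41 in Lepr-ctrl at 2 wpc, and the G protein subunit Gnai1 was the lower one (-1.78).

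Most markers of macrophages, T and NK cells, dendritic cells and neutrophils were called higher with injury, and mast cell markers were not. Whether markers and members varied together was not tested. Macrophage markers summed to 94.5 to 321.4 CPM in healthy and 782.7 to 3794 CPM in injured nerves, and 7, 10, 7 and 9 of 10 were called higher in Lepr-ctrl at 2 and 4 wpc and Lepr-cKO at 2 and 4 wpc. Their log2 fold changes in Lepr-ctrl at 2 wpc ran from 0.44 for Mrc1 to 4.05 for Lyz2. T and NK cell markers summed to 0.605 to 1.67 CPM in healthy and 6.77 to 30.3 CPM in injured nerves, with 7 of 7 called higher in each comparison. Dendritic cell markers summed to 23.1 to 31.6 CPM in healthy and 32.1 to 153.8 CPM in injured nerves, with 3 of 4 called higher in each and Zbtb46 in none. Neutrophil markers summed to 2.51 to 11.9 CPM in healthy and 8.22 to 79.6 CPM in injured nerves, with 4, 3, 4 and 3 of 5 tested called higher, while the granulocyte gene Ly6g did not pass the filter. Of B cell markers, 1 of 2 tested was called higher in each comparison. Mast cell markers were called higher in none and lower in 0, 1, 1 and 1 of 5. Fibroblast markers were called lower in 2, 1, 1 and 0 of 4 and endothelial markers higher in 1, 2, 2 and 0 of 4. Adipocyte markers were called higher in 4, 4, 0 and 0 of 4. In injured Lepr-ctrl nerves these markers summed to 0.0762, 49.5, 37.2, 0.380 and 0.293 CPM at 2 wpc. At 4 wpc the sums were 54.1, 72.9, 0 and 0.375 CPM. The Lepr-ctrl calls thus rest on some nerves of each group, while healthy Lepr-cKO nerves reached 64.3 CPM and SLRKO2wpc126i held 311 CPM. The part of changed cell numbers in the members' values was not tested.

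**Figure D3:**
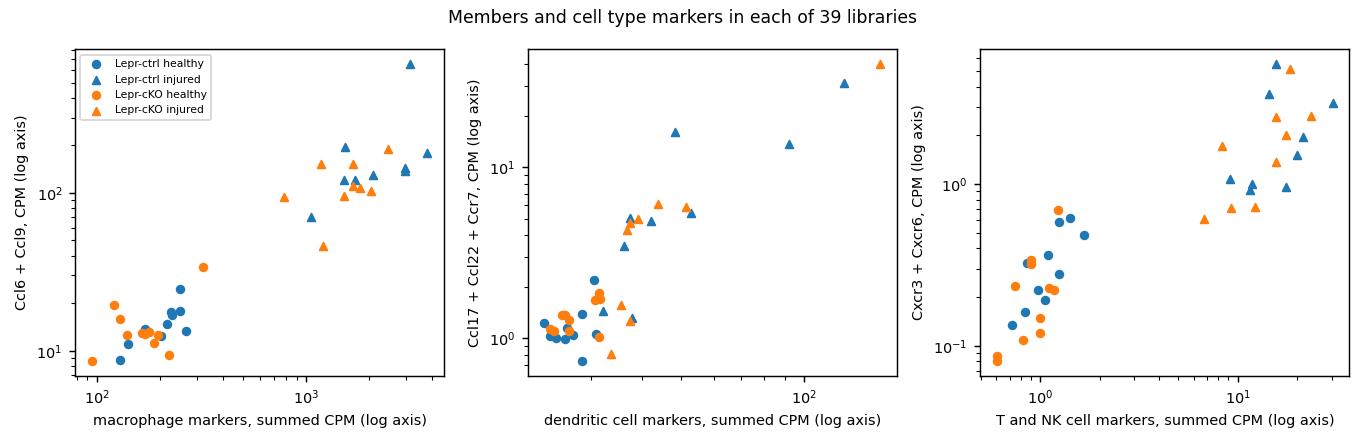
Summed CPM of members (vertical, log axis) against summed CPM of marker genes of a cell type (horizontal, log axis) in each of the 39 libraries, circles for healthy and triangles for injured nerves, blue for Lepr-ctrl and orange for Lepr-cKO. Injured nerves lie above and to the right of healthy ones for macrophages with Ccl6 and Ccl9, and the highest injured triangles for Ccl17, Ccl22 and Ccr7 are the 2 libraries with dendritic markers of 125.6 and 153.8 CPM.

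Whether the response to injury differed between 2 and 4 wpc was tested as the difference of the log2 fold changes at the 2 times. The injured nerves of the 2 times differ in depth as well, and the mice are different animals. In Lepr-ctrl nerves, 2 members (Ccl3 and Ccl11) had a larger response at 4 wpc, where 1.61% of all genes did, and 2 (Cxcl10 and Cxcl14) a smaller one, where 2.81% did. Ccr7 was also called smaller in 4 of the alternatives, with DESeq2 (adjusted p = 0.0271), with the compared groups alone (adjusted p = 0.0287), without SLRKO2wpc128i (adjusted p = 0.0368) and without the 4 libraries that stand apart (adjusted p = 0.0482). In Lepr-cKO nerves, edgeR called 0 members, against 1.42% of all genes in either direction. There 7 members had an unadjusted p under 0.05, beside 2699 of all 18442 genes. DESeq2 called 1 member, Ccl11 (1.08, adjusted p = 0.0384), as did the fits without the healthy library KO-169Snc (1.27) or the injured library SLRKO2wpc125i (1.24).

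Cxcl10 (ENSMUSG00000034855, chromosome 5, 92346638 to 92348889, an interferon-induced ligand of CXCR3) was 4.34, 4.74, 4.50, 3.98 and 3.96 CPM in healthy and 45.3, 86.7, 44.9, 31.4 and 32.9 CPM in injured Lepr-ctrl nerves at 2 wpc, and 6.08, 1.21, 1.79, 16.5 and 4.08 CPM in healthy and 9.23, 10.1, 8.75 and 7.98 CPM in injured ones at 4 wpc. The injured nerves at 4 wpc thus lay below all injured nerves at 2 wpc and overlapped the healthy ones, since the healthy library WT-173Snc held 16.5 CPM. The response was 3.48 ± 0.45 (SE, adjusted p = 3.67e-08) at 2 wpc and 0.58 ± 0.45 (SE, adjusted p = 0.265) at 4 wpc, a difference of -2.91 ± 0.63 (SE, adjusted p = 0.0032). This difference was -2.28 with the animal as a block and -2.06 without WT-173Snc, and was called in both. With the animal as a block, Cxcl10 was called at 4 wpc (1.25, adjusted p = 0.0329), and without the healthy library WT-173Snc its value there was 1.43 (adjusted p = 0.00255). In Lepr-cKO nerves, Cxcl10 was 43.0, 38.4, 29.7, 45.0 and 48.9 CPM in injured nerves at 2 wpc and 34.0, 12.9, 12.2 and 8.93 CPM at 4 wpc, and the difference of the responses was -0.90 (95% interval -2.11 to 0.32, adjusted p = 0.53). Its exons share 133 of 2252 bases with Art3 on the opposite strand.

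Ccl3 (ENSMUSG00000000982, chromosome 11, 83647844 to 83649355) had the larger response at 4 wpc. It was 0.667, 0.527, 0.591, 0.207 and 0.134 CPM in healthy and 4.35, 2.09, 2.97, 4.84 and 2.38 CPM in injured Lepr-ctrl nerves at 2 wpc, and 0.482, 0.0833, 0.0448, 0.193 and 0.162 CPM and 7.05, 8.92, 9.30 and 6.48 CPM at 4 wpc. The healthy mean was 0.555 CPM per kilobase at 2 wpc and 0.252 at 4 wpc, with some values near the floor. This lower healthy level enters the larger response at 4 wpc and was not tested itself. The injured nerves at 4 wpc lay above all those at 2 wpc, and the response went from 2.92 ± 0.45 (SE, adjusted p = 8.4e-07) to 5.31 ± 0.52 (SE, adjusted p = 1.03e-10), a difference of 2.39 ± 0.66 (SE, adjusted p = 0.019). The call was lost without the healthy library SLRKO2wpc120c (2.16, adjusted p = 0.0506). With the animal as a block, the response at 4 wpc was 5.93. In Lepr-cKO nerves the injured values were 3.66, 1.67, 2.61, 5.54 and 8.09 CPM and 2.46, 5.91, 3.70 and 6.72 CPM, with a difference of the responses of 1.78 (95% interval 0.35 to 3.21, adjusted p = 0.204).

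Ccl11 (ENSMUSG00000020676, chromosome 11, 82057823 to 82062955) was 109, 119.7, 74.2, 85.2 and 54.7 CPM in healthy and 62.3, 64.1, 124.9, 87.8 and 70.0 CPM in injured Lepr-ctrl nerves at 2 wpc, where the groups overlapped. At 4 wpc it was 74.4, 54.0, 32.5, 45.2 and 44.3 CPM in healthy and 82.5, 112, 112 and 118 CPM in injured nerves, with no overlap. The healthy mean was 88.5 ± 26.2 CPM (SD, n = 5) at 2 wpc and 50.1 ± 15.6 CPM (SD, n = 5) at 4 wpc, a difference between the uninjured nerves of the times that was not tested itself. The response was -0.11 ± 0.23 (SE, adjusted p = 0.675) and 1.09 ± 0.24 (SE, adjusted p = 0.000225), a difference of 1.20 ± 0.33 (SE, adjusted p = 0.0192), and the Lepr-cKO difference was 1.09 (95% interval 0.42 to 1.75, adjusted p = 0.074). Without the healthy library WT-171Snc, the response at 4 wpc in Lepr-ctrl was 0.96, under the fold threshold.

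Cxcl14 (ENSMUSG00000021508, chromosome 13, 56288643 to 56296551), a chemokine of epithelia and fibroblasts whose receptor is debated, was 5.25, 4.71, 1.25, 1.59 and 2.80 CPM in healthy and 123.5, 73.3, 58.4, 29.9 and 108 CPM in injured Lepr-ctrl nerves at 2 wpc. At 4 wpc it was 4.41, 1.58, 1.25, 3.68 and 2.23 CPM and 14.4, 23.3, 24.2 and 13.5 CPM, so that injured nerves were above all healthy ones at both times and lower at 4 than at 2 wpc. The response was 4.66 ± 0.45 (SE, adjusted p = 7.15e-11) and 2.82 ± 0.44 (SE, adjusted p = 1.29e-06), a difference of -1.84 ± 0.60 (SE, adjusted p = 0.0469), which was lost in 17 of 48 alternatives. In Lepr-cKO nerves the responses were 4.43 and 4.02, with a difference of -0.41 (95% interval -1.59 to 0.77, adjusted p = 0.821). Whether these differences between times themselves differed between the genotypes was not tested.

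**Figure D4:**
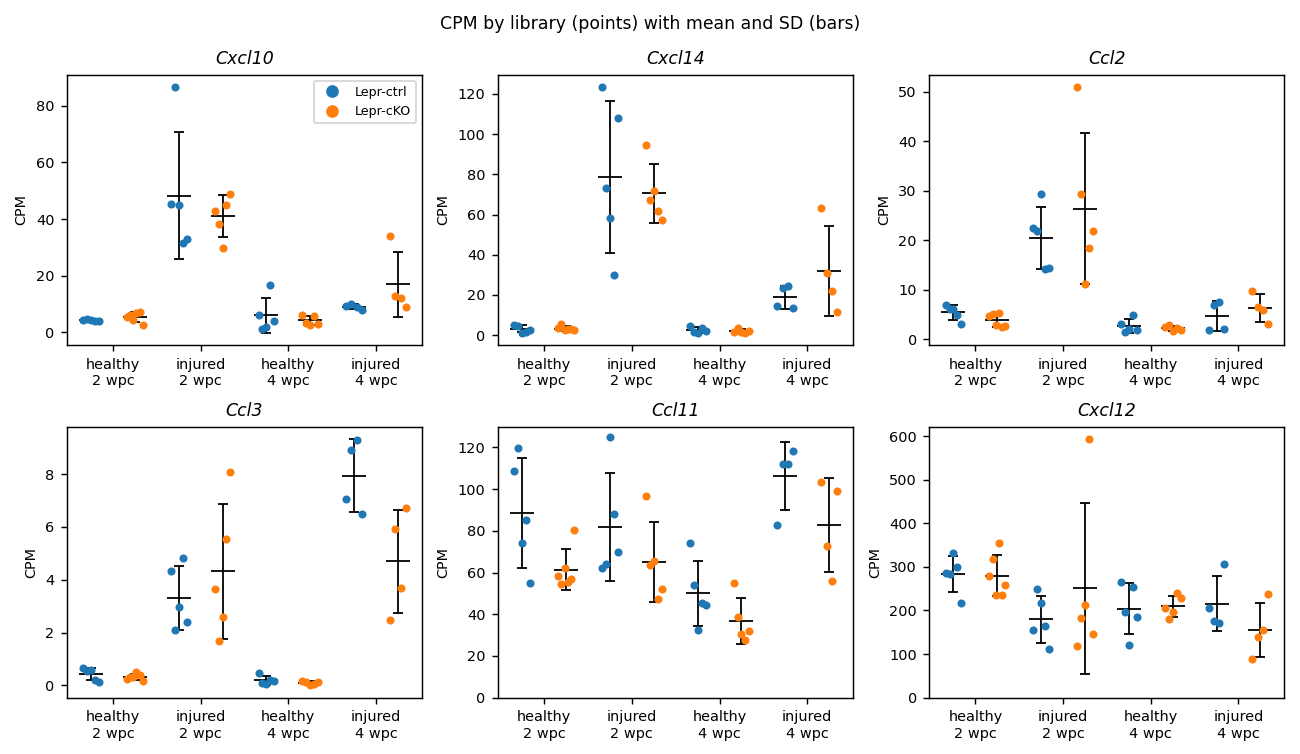
CPM of 6 members in each library (points, blue for Lepr-ctrl and orange for Lepr-cKO), with the group mean and SD as black bars, by nerve and time on linear axes. Cxcl10, Cxcl14 and Ccl2 are highest in injured nerves at 2 wpc, Ccl3 in injured Lepr-ctrl nerves at 4 wpc, and Cxcl12 overlaps between all groups apart from SLRKO2wpc135i at 594 CPM.

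The promoters of 3 of the 4 members whose response differed with time are shown, because their letters let the members with opposite courses be compared. They are the 250 bases before the annotated start, from RefSeq on GRCm38.p6, read on the minus strand, at chr5:92348890-92349139 for Cxcl10, chr11:83649379-83649628 for Ccl3 and chr13:56296552-56296801 for Cxcl14. Capitals mark matches to the motifs searched on both strands.
Cxcl10: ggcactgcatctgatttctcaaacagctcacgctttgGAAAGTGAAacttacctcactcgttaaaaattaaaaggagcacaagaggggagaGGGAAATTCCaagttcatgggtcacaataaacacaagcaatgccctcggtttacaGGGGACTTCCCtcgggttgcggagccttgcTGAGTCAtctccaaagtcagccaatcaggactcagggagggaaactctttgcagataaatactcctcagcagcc
Ccl3: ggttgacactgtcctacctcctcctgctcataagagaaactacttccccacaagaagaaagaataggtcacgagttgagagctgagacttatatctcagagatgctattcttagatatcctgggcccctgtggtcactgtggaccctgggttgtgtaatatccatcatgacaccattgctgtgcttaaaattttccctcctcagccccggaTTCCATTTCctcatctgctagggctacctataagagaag
Cxcl14: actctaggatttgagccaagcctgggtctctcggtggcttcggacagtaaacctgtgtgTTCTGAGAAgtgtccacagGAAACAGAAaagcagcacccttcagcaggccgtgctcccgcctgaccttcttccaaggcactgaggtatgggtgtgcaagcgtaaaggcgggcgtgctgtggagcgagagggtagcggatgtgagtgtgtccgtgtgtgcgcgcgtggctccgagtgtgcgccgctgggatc

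The motifs were the NF-kappaB site, the STAT site TTCNNNGAA, the interferon response element GAAANNGAA, the AP-1 site TGANTCA and the TATA box TATAAA. In Cxcl10, NF-kappaB matches lay 159 to 150, 104 to 95 and 103 to 94 bases before the start, the last of these overlapping, with an interferon response element at 213 to 205 and an AP-1 site at 74 to 68. Ccl3 held an interferon response element on the opposite strand at 39 to 31, and Cxcl14 a STAT site at 191 to 183 and an interferon response element at 172 to 164. Of 36 members, 25 matched the table, with 28 promoters. Interferon response elements stood in 6 of the 28 (Ccl3, Ccr2, Cxcl10, Cxcl14, Cxcl9 and Cxcr1), beside 7.13% of 32851 promoters of the same length. NF-kappaB matches stood in 6 (Ccl9, Ccr1, Ccr3, Cxcl1, Cxcl10 and Cxcl2; 7.25% of all), STAT sites in 2 (7.02%), AP-1 sites in 4 (6.75%) and TATA boxes in 7 (12.4%). A match describes letters and is no sign of binding, and Cxcl10 and Cxcl14, whose response was smaller at 4 wpc, share the interferon letters with Ccl3, whose response was larger.

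The genotype comparison asks whether loss of Schwann cell Lepr altered the chemokine response. In injured nerves, edgeR called 0 members at 2 wpc and 0 at 4 wpc, against 0.569% and 0.45% of all genes in either direction. An unadjusted p under 0.05 was reached by 3 and 2 members, beside 1187 and 3667 of all 18442 genes. DESeq2 called 0 members in both. The 105 genes called at 2 wpc were all higher in Lepr-cKO nerves and include all the listed skeletal muscle markers. Those markers were high in SLRKO2wpc126i alone, and how far the share of 0.569% depends on this library was not tested. In healthy nerves 0 were called at 2 and at 4 wpc (0.00542% of all genes at each time), and 0 by DESeq2. There 5 and 0 members had an unadjusted p under 0.05, beside 222 and 346 of all genes. The difference of the injury response between genotypes was called for 0 members at 2 and 4 wpc (0% of all genes), and for 0 by DESeq2. At each time 2 members had an unadjusted p under 0.05, beside 797 genes in all at 2 wpc and 2013 at 4 wpc. The data bound the differences loosely. The 95% interval of the genotype difference lay within 1 of 0 on the log2 scale for 7 members at 2 wpc and 6 at 4 wpc in injured nerves, and its median half-width was 0.90 and 1.05.

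Among the well-measured members, the interval at 2 wpc in injured nerves was -0.39 (95% interval -0.78 to -0.01, adjusted p = 0.764) for Cxcl16, -0.44 (95% interval -1.03 to 0.14, adjusted p = 0.897) for Ccl9, 0.32 (95% interval -0.23 to 0.86, adjusted p = 0.96) for Cxcr4 and 0.36 (95% interval -0.37 to 1.10, adjusted p = 0.98) for Ccl2. Cxcl1, whose values are given above, was higher in 4 of the 5 injured Lepr-cKO nerves than the median Lepr-ctrl nerve, with a difference of 1.65 (95% interval 0.57 to 2.73, adjusted p = 0.292). The genotype difference in its response was 2.75 (95% interval 1.26 to 4.24, adjusted p = 0.293). Without the Lepr-cKO injured library SLRKO2wpc128i, these became 1.95 (adjusted p = 0.0352) and 3.05 (adjusted p = 0.0421), both past the threshold, so that 1 library decides the call. Cxcl2 had a difference in injured nerves of 1.41 (95% interval -0.09 to 2.92, adjusted p = 0.819), on 0.0949 to 0.381 CPM in Lepr-ctrl and 0.367 to 1.12 CPM in Lepr-cKO nerves. Neutrophil markers, whose cells answer to these ligands, were called in neither genotype comparison of injured nerves.

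At 4 wpc, Cxcr1 had the smallest adjusted p. It was 2.35, 2.23, 0.557 and 0.563 CPM in injured Lepr-ctrl and 0.147, 0.164, 0.254 and 0.782 CPM in injured Lepr-cKO nerves, where KO-177Sni lay within the Lepr-ctrl range, with a difference of -2.13 (95% interval -3.60 to -0.67, adjusted p = 0.0966). Without KO-177Sni, Cxcr1 was called lower (-2.92, adjusted p = 0.0207), so that 1 library decides this call too. The differences of Ccl9, Ccl3 and Cxcl10 at 4 wpc were -0.69 (95% interval -1.35 to -0.03, adjusted p = 0.229), -0.77 (95% interval -1.67 to 0.14, adjusted p = 0.338) and 0.92 (95% interval -0.04 to 1.89, adjusted p = 0.274). In the same injured nerves at 4 wpc, macrophage markers summed to 2856 ± 858 CPM (SD, n = 4) in Lepr-ctrl and 1677 ± 349 CPM in Lepr-cKO, Schwann cell markers to 15729 ± 2311 and 32583 ± 12773 CPM, and mitochondrial genes took 20.2 ± 2.06 and 11.4 ± 7.12% of the counts. No gene of either marker list was called there, and the part of these differences in the members' values was not tested. In healthy nerves at 2 wpc, Ccl11 was 109, 119.7, 74.2, 85.2 and 54.7 CPM in Lepr-ctrl and 54.5 to 80.5 CPM with a median of 57.6 in Lepr-cKO nerves, with a difference of -0.53 (95% interval -0.97 to -0.09, adjusted p = 1). The skeletal muscle markers were called higher 7 of 7 in injured Lepr-cKO nerves at 2 wpc, where SLRKO2wpc126i held 36440 CPM and the other 4 held 4.70 to 20.9 CPM, and no other marker list had a gene called in that comparison.

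**Figure D5:**
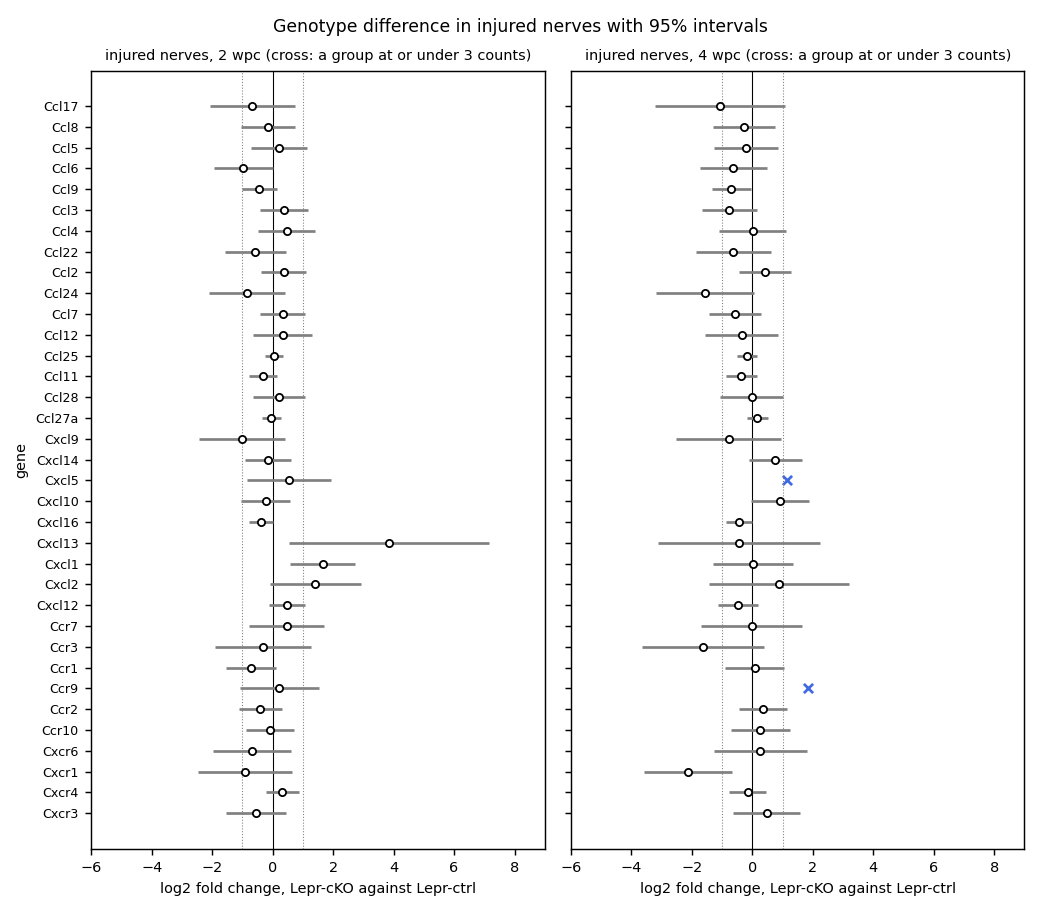
Difference of Lepr-cKO from Lepr-ctrl injured nerves (fitted log2 fold change) for 35 of the 36 members (rows) at 2 wpc (left) and 4 wpc (right), with 95% intervals as lines, and crosses for members at or under 3 counts in every library of a group. Dotted lines mark a log2 fold change of 1 in either direction, which most intervals cross, and no member was called.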

How the data were processed

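Per the methods of the study, TruSeq libraries of endoneurial RNA were sequenced as single reads of 50 bases, and per the submitters' processing notes the authors used bcl2fastq 2.20.0.422, STAR 2.5 with GRCm38 and featureCounts 1.5.0-p1. Strand setting and handling of reads with several matches are not given in the sources used here. The deposited files hold raw read counts per Ensembl gene, 1 file per library, without normalization.

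Symbols were taken from GENCODE. 93 genes had none. Counts were normalised by TMM in edgeR 4.0.16 (R 4.3.3), filtered by group (minimum count 10, minimum total 15), and fitted as 8 groups over 39 libraries with a quasi-likelihood F test. p-values were adjusted by Benjamini-Hochberg over 18442 genes in each of 12 comparisons. A gene was called past the thresholds the authors state, a log2 change of 1 in either direction and an adjusted p of 0.05. CPM used the TMM-scaled totals. Where all libraries of a group held 3 counts or fewer, no fitted fold is given, and CPM values near the floor carry counting error. Animals are the replicates. The animal number pairs healthy and injured nerves by the labels for 17 mice, and their deviations from the group means over 5000 genes correlated at -0.116 to 0.567, above 0.1 in 14. The main fit had no block, and a fit blocked by animal is an alternative, as are DESeq2 1.42.0, other size factors and filters, the compared groups alone, and leaving out each library. In the blocked fit, mice with only 1 library add nothing to the injury estimates.

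Members and gene lists were chosen with earlier results of these data known. Values are given in full for the 3 members with the highest level per kilobase in each class, the 4 largest called changes in each direction in Lepr-ctrl nerves at each time, and any member past the adjusted p in a genotype comparison. Ccl2, Ccl3, Ccl5, Ccl24, Cxcl1, Cxcl9, Cxcl16 and the other genes shown were chosen after their values were seen. Promoters came from RefSeq on GRCm38.p6. 1 member is not reported here by name and is in the counts over members but not in the figures.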

Additional observations from a re-analysis of the deposited data

Results flagged for a closer look

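The gap of the highest or lowest library to its nearest neighbour was compared with the range of its group (Dixon's criterion) for 155 group values of 23 genes, and 23 stood out. For normally distributed values, chance alone flags about 1 in 20 groups. CPM values, many of them near the floor, need not follow that distribution, and the group values share libraries. The number that stood out is therefore not set against this rate.

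The Lepr-ctrl injured library SLRKO2wpc144i held 487 CPM of Ccl6 (next 124), 166 CPM of Ccl9 (next 70.6), 25.7 CPM of Ccl8 (next 7.47), 51.0 CPM of Cxcl16 (next 29.1) and 6.46 CPM of Ccr3 (next 1.10). The injured library SLRKO2wpc130i of this group held 86.7 CPM of Cxcl10 (next 45.3), and the healthy nerve of the animal (SLRKO2wpc130c) held 5.16 CPM of Cxcl1 (next 1.77). In Lepr-cKO injured nerves at 2 wpc, SLRKO2wpc128i held 8.01 CPM of Ccl17 (next 0.922) and 19.6 CPM of Ccr7 (next 3.08), SLRKO2wpc135i held 594 CPM of Cxcl12 (next 212), and SLRKO2wpc138i held 5.59 CPM of Ccr3 (next 0.551) and 2.02 CPM of Cxcl13 (next 0.339).

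The healthy library SLRKO2wpc138c also stood apart, with 80.5 CPM of Ccl11 (next 62.4), 19.2 CPM of Ccl6 (next 9.16), 14.6 CPM of Ccl9 (next 7.17) and 1.52 CPM of Cxcl13 (next 0.282). Among Lepr-cKO healthy nerves at 4 wpc, KO-175Snc held 0.403 CPM of Cxcl13 (next 0.0808). In Lepr-cKO injured nerves at 4 wpc, KO-169Sni held 34.0 CPM of Cxcl10 (next 12.9), 19.2 CPM of Cxcr4 (next 10.1) and the lowest Ccl27a (4.63 CPM, next 6.46), and KO-177Sni held 0.782 CPM of Cxcr1 (next 0.254). In Lepr-ctrl injured nerves at 4 wpc, Ccl11 was lowest in WT-170Sni (82.5 CPM, next 112) and Ccl27a highest in WT-173Sni (6.35 CPM, next 5.22).

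The response to injury differed between 2 and 4 wpc in Lepr-ctrl nerves for Ccl11 (by 1.20 on the log2 scale), Ccl3 (by 2.39), Cxcl10 (by -2.91) and Cxcl14 (by -1.84), as a test of the difference itself.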

How the results depend on the processing

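Counts of called members stayed within 1.5 times of the reported ones under all alternatives except those named here. Fitting only the compared groups left 17 members called with injury in Lepr-cKO nerves at 4 wpc, DESeq2 called 1 (Ccl11) for the difference between times in Lepr-cKO nerves, and leaving out 1 library moved counts of 0 to 1 (Cxcl1 without SLRKO2wpc128i, Cxcr1 without KO-177Sni, and Ccl11 without KO-169Snc or SLRKO2wpc125i). With single libraries left out, the counts were 24 to 26 and 22 to 25 in Lepr-ctrl and 27 to 28 and 25 to 28 in Lepr-cKO nerves at 2 and 4 wpc, 0 to 1 for genotype in injured nerves at each time and 0 to 0 in healthy nerves, 0 to 1 and 0 to 0 for the difference of the responses between genotypes, and 3 to 5 and 0 to 1 for the difference between times in Lepr-ctrl and Lepr-cKO nerves. With the animal as a block, pairing both nerves of a mouse, the counts were 24, 26, 27 and 26 with injury, 0 and 0 for the responses compared between genotypes, and 4 and 0 for the difference between times. Among the results recomputed one gene at a time, 31 lost and 10 gained a call when a library was left out, of 4446. Many of these fits left out a library of a group that was not compared, as did many alternatives counted above for Ccl17, Ccr10 and Cxcl14. Such fits reach a result only through the normalization, the filter, the shared estimate of spread and the adjustment.

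Changes of sign concerned values near 0 or near the floor, none of them called. Cxcl1 between genotypes in injured nerves at 4 wpc was -0.00393 with DESeq2 size factors, -0.00242 with DESeq2 and -0.28 to 0.45 with single libraries left out. Cxcl1 in Lepr-ctrl at 2 wpc was 0.00570 without mitochondrial genes in the normalization, 0.13 with the block, 0.41 without the 4 libraries that stand apart (an alternative chosen after seeing the data) and -0.60 to 0.75 without 1 library. In Lepr-cKO at 2 wpc, Cxcl13 was -0.18 with the block and -1.78 to 2.30 without 1 library. In Lepr-ctrl at 2 wpc its fitted value, which is no bound, was 0 without the libraries that stand apart and 0 to 3.21 without 1 library. Without the libraries that stand apart, Ccr10 was 0.32 in Lepr-ctrl and Cxcl12 0.052 in Lepr-cKO at 2 wpc. Without 1 library, the ranges were -0.43 to 0.073 for Ccr10 in Lepr-ctrl at 2 wpc, -0.77 to 0.044 and -0.16 to 0.18 for Cxcl12 in Lepr-cKO at 2 wpc and Lepr-ctrl at 4 wpc, and -0.30 to 0.029 and -0.078 to 0.20 for Ccl11 at 2 wpc in Lepr-ctrl and Lepr-cKO. The cause was not tested. Injured nerves at 4 wpc were shallowest, which limits members near the floor.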
